A study of Homo sapiens with 54 samples.

Results

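Irradiation was added to 5-fluorouracil (5-FU) in cells labelled as 5-FU-resistant HT-29, and the transcripts of these cells were compared with those of the same labelled cells given 5-FU alone. The comparison rests on 6 of the 54 samples of the series, chosen by their labels: 3 replicates with 10 µM 5-FU and 4.6 Gy of X-rays, and 3 with 10 µM 5-FU only, each treated for 24 h. HT-29, HCT-116 and DLD-1 are human colorectal cancer lines, and each was profiled by poly(A) RNA-seq as sensitive and as 5-FU-resistant cells under uracil, 5-FU, or 5-FU with irradiation. The resistant cells were made by passage in rising 5-FU and kept in it, so both groups carry this history, and whether they are 1 clone is not given in the sources used here. The irradiated cells had their medium changed at irradiation. The methods do not say the same of the cells with 5-FU alone, so the medium change and the irradiation cannot be told apart. The time from irradiation to harvest is not given in the sources used here.

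Ionizing radiation breaks DNA, and 5-FU inhibits thymidylate synthase and is built into nucleic acids. The transcription factor p53 is stabilized after DNA damage and switches on genes that stop the cell cycle, repair DNA, feed back on p53 or prepare cells for apoptosis. When cells stop dividing, transcripts of the G1/S genes (read through E2F sites) and of the G2/M genes (read through CHR elements and CCAAT boxes) fall together.

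The label was set against line markers before the results. Genes at 10 TPM (a level scaled by transcript length and by depth) or more in 1 sensitive line and at 0.1 TPM or less in the others were taken as its markers. Of 47 HCT-116 markers, 45 (95.7%) were at 1 TPM or more in each of the 6 libraries. None of the 7 HT-29 markers and none of the 14 DLD-1 markers reached that level in any of them. MAGEB2, a cancer-testis gene at a mean of 182 TPM in sensitive HCT-116, was at 169, 168 and 170 TPM with 5-FU and at 178, 160 and 165 TPM with irradiation. SOSTDC1, at 18.5 TPM in sensitive HT-29, did not exceed 0.0865 TPM. The libraries labelled resistant HT-29 thus carry the markers of HCT-116 and lack those of HT-29, and they are called labelled resistant HT-29 throughout. Of the colonic epithelial markers, EPCAM lay between 206 and 221 TPM in the 6 libraries, whereas CEACAM5 did not exceed 0.0553 TPM. The 6 libraries held 45150849 to 56091900 estimated counts each, within the 38957142 to 218518344 of the series. Irradiated replicate 2 listed 17188 genes at 1 TPM or more against 16481 to 16964 in the other 5.

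With added irradiation many genes differed in level by a small amount. Of 23756 genes tested with edgeR's quasi-likelihood test, 3425 (14.4%) passed at 0.01 after Benjamini-Hochberg adjustment, the limit used for every call here. Of these, 1776 (7.48% of all tested) rose, with a median log2 fold change of 0.32, and 1649 (6.94%) fell, with a median of -0.26. Only 83 (0.349%) rose and 20 (0.0842%) fell by 2-fold or more. The median over all genes was 0.03 on the log2 scale. TPM values of the irradiated and the 5-FU replicates did not overlap for 7560 genes (31.8%), which is the background for each statement on overlap below. In bulk RNA, fewer cells expressing a gene and less of its RNA per cell cannot be told apart.

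Target genes of p53 moved together and mostly upwards. Of 49 members tested in a list of 50, 42 rose (7.48% of all genes tested rose), 1 fell and 6 did not pass the test, and the median log2 fold change was 0.49 against 0.03 over all genes. The 42 rises ran from 0.21 to 1.34 on the log2 scale. In 45 of the 49 genes all irradiated replicates lay above all 5-FU replicates. Summed over the list, the level was 2375, 2379 and 2395 TPM with 5-FU and 3750, 3618 and 3672 TPM with irradiation. Under uracil it was 2411, 2428 and 2399 TPM, so the 5-FU and the uracil libraries lay close together and the irradiated ones stood well above both.

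Among p53 targets above 1 TPM, the arrest genes CDKN1A and BTG2 had the largest estimates. CDKN1A (chr6:36676460-36687337, GRCh38), which encodes the cyclin-dependent kinase inhibitor p21, was at 173, 173 and 180 TPM with 5-FU and at 391, 377 and 382 TPM with irradiation. The groups were far apart, a 2.2-fold rise (log2 fold change 1.14, SE 0.05, edgeR adjusted p = 9.24e-15). Its main transcript, CDKN1A-201, went from 147, 149 and 153 TPM to 344, 329 and 335 TPM, so 1 transcript held most of the gene's level in both groups. BTG2 (chr1:203305491-203309602), an antiproliferative gene, went from 14.8, 14.7 and 15.6 TPM to 33.6, 32.3 and 34.6 TPM, also 2.2-fold. Of the 8 genes of arrest and damage checkpoints, 7 rose with a list median of 0.56. Among them, GADD45A (log2 fold change 0.35), the polo-like kinases PLK2 (0.56) and PLK3 (0.56), and SFN, the G2 checkpoint gene stratifin (0.38), had smaller rises than CDKN1A. E2F7, a repressor of E2F targets that p53 can induce, went the other way. It was at 14.3, 15.9 and 16 TPM with 5-FU and at 11.4, 12.6 and 12.3 TPM with irradiation, and it was the 1 member that fell (-0.44, SE 0.04, edgeR adjusted p = 3.13e-08).

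Most genes that feed back on p53 rose as well. MDM2 (chr12:68808177-68845544), the ubiquitin ligase that removes p53, was at 108, 122 and 108 TPM with 5-FU and at 166, 181 and 176 TPM with irradiation, a 1.52-fold rise (log2 fold change 0.60, SE 0.04, edgeR adjusted p = 2.84e-10). The groups did not overlap, though 5-FU replicate 2 was higher than the others. By transcript, MDM2-224 went from a mean of 34.5 TPM ± 0.83 (SD, n = 3) to 56.2 ± 2.72 and MDM2-202 from 18.4 ± 1.47 to 28.2 ± 1.17. MDM2-204, a transcript annotated for nonsense-mediated decay, stood at 5.9 ± 0.545 TPM and 5.35 ± 0.53 TPM, so the rise was not shared by every transcript. In this group 5 of 6 genes rose, with a list median of 0.31. The phosphatase gene PPM1D (0.49) and the cyclin gene CCNG1 (0.40) were among them, and PIDD1 (-0.07, edgeR adjusted p = 0.344) did not pass.

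The apoptosis group rose almost in full, with 13 of 14 genes called and a median of 0.63. FDXR (chr17:74862497-74873031), a mitochondrial ferredoxin reductase, was at 64.5, 62.3 and 65.6 TPM with 5-FU and at 113, 114 and 115 TPM with irradiation. Its replicates lay within a few TPM of each other on both sides of a 1.74-fold rise (log2 fold change 0.80, SE 0.04, edgeR adjusted p = 2.02e-13). TP53INP1, a stress-induced p53 cofactor, went from 10.5, 10.2 and 11.4 TPM to 22.5, 22.1 and 23 TPM (1.04). CYFIP2 went from 32.8, 35.6 and 31.2 TPM to 59, 57.7 and 57.3 TPM (0.75). The death receptor genes FAS (0.88) and TNFRSF10B (0.36), the BCL2-family genes BBC3 (0.70) and BAX (0.46), and the quinone oxidoreductase gene TP53I3 (0.73) rose as well. The groups did not overlap in any of these 5, but the genes were chosen after their values were seen, so this adds no support. EDA2R did not pass and was below 0.21 TPM in every library.

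Repair and metabolic targets followed. All 5 genes of DNA repair and nucleotide supply rose, with a median of 0.49. DDB2, which recognizes UV lesions, was at 51.3, 48.5 and 49.8 TPM with 5-FU and at 79.2, 80.2 and 83.9 TPM with irradiation (log2 fold change 0.65, SE 0.04, edgeR adjusted p = 8.83e-12). XPC (0.49), the translesion polymerase gene POLH (0.45), the ribonucleotide reductase subunit gene RRM2B (0.50) and the helicase gene ASCC3 (0.31) make up the rest of the group. Of 10 genes tested in the redox, growth and metabolism group, 7 rose, and SESN2 (0.17), CES2 (0.11) and PANK1 (0.19) did not pass. GDF15, a secreted stress cytokine, had the highest level of the list, at 541, 517 and 515 TPM with 5-FU and 923, 837 and 857 TPM with irradiation. SERPINB5, the gene of the serpin maspin, went from 15.6, 13.9 and 14.7 TPM to 31.5, 29.2 and 30.9 TPM, a 2-fold rise. The largest value of the list, 1.34 for the lipid transporter gene ABCA12, belongs to a gene that did not exceed 0.65 TPM in any library. SPATA18 was not tested because its counts were too low. Apart from the genes that the naming rule picked, members are named by role and were chosen after their values were seen.

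**Figure D1:**
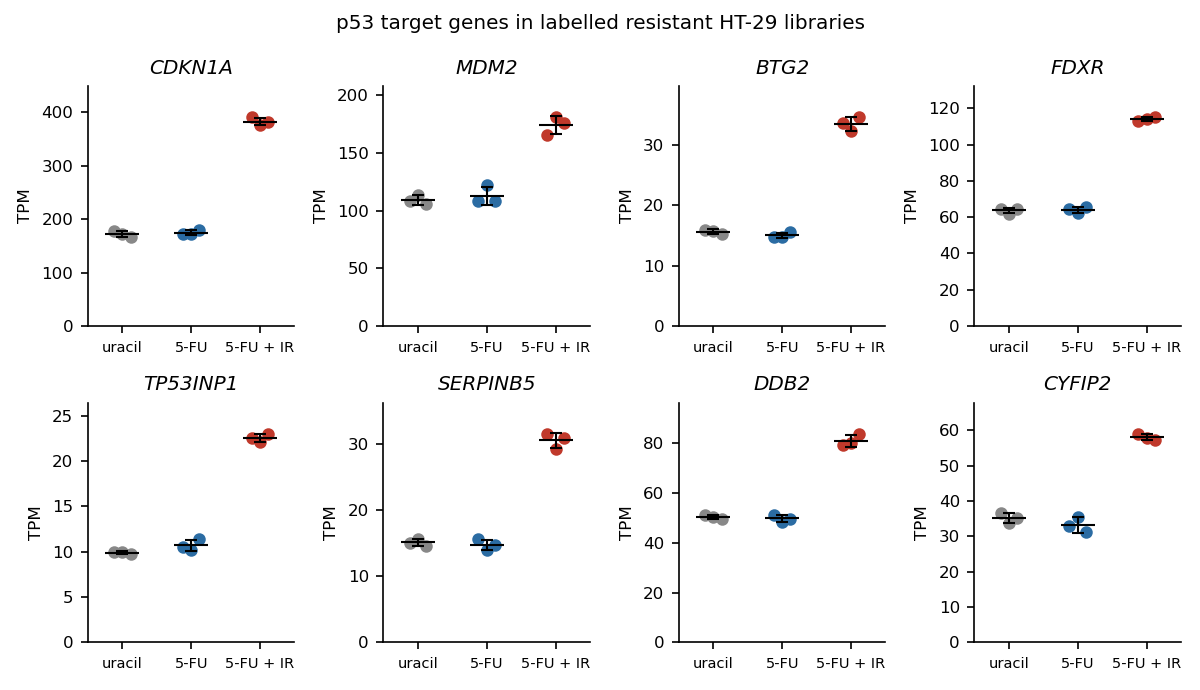
TPM (y axis, from 0) of 8 p53 target genes in the labelled resistant HT-29 libraries under uracil, 5-FU and 5-FU with irradiation (x axis). Points are libraries, the long bar is the mean and the whiskers are the SD over 3 replicates. In each gene the irradiated replicates lie above all others, as for CDKN1A at 377 to 391 TPM against 173 to 180 TPM with 5-FU.

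No full p53 site was found in the promoters at hand. Promoter sequences of 250 bases before to 50 after the start (RefSeq, GRCh38.p14) matched 13563 of the 23756 genes tested (57.1%) and 40 of the 49 p53 targets (81.6%). The p53 consensus as a pair of half-sites up to 13 bases apart, with no mismatch, was in 0 of these 40 and in 5 of the 13563 (0.0369%). A single half-site was in 5 of the 40 (12.5%) and in 5.77% of all. The window is short, and an absent match says only that these letters are not in it.

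Genes of mitosis and of DNA replication mostly fell, by less than the p53 targets rose. Of 40 genes of G2/M and mitosis 30 fell (6.94% of all genes tested fell), 4 rose and 6 did not pass, with a median log2 fold change of -0.27. Of 40 genes of DNA replication and G1/S 31 fell and 0 rose in edgeR's test (0 rose by DESeq2 too, and 0 were higher at an unadjusted p under 0.05), with a median of -0.26, and the estimate was below 0 for all 40. The summed level of the G2/M list went from 4841 TPM ± 21.2 (SD, n = 3) to 4436 ± 53.2, and that of the G1/S list from 4213 ± 23.8 to 3581 ± 66.5.

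The promoters of these lists hold the letters by which such genes are usually recognized, and a few are shown for genes that fell. The CHR element was searched as TTTGAA or TTCGAA, the CCAAT box as CCAAT, and E2F sites as TTTCCCGC, TTTGGCGC or TTTCGCGC, each on both strands. A CHR was in 23 of 34 G2/M promoters (67.6%) and in 11.9% of the 13563, and a CCAAT box in 27 of 34 (79.4%) and in 36.1%. Both stood together in 64.7% of G2/M promoters and in 4.97% of all. The E2F letters were in 20 of 35 G1/S promoters (57.1%) and in 4.15% of all. Among the 26 G2/M genes that fell and had a promoter, 18 (69.2%) held a CHR, close to the share in the whole list. Likewise 2 of the 3 G2/M genes with a promoter that rose held one too. A match is a description of the letters and not a bound site. The first 3 lines below are G2/M genes, with CHR letters and CCAAT boxes in capitals on either strand, and the last 3 are G1/S genes, with E2F letters in capitals.
DLGAP5, chr14:55191586-55191714, minus strand: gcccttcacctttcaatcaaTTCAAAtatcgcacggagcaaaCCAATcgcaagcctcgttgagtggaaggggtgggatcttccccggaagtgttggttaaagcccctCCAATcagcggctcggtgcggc
KIF23, chr15:69414265-69414319, plus strand: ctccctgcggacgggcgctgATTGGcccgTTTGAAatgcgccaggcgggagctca
KIF11, chr10:92593057-92593127, plus strand: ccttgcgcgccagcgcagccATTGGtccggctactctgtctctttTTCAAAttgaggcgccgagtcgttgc
CDT1, chr16:88803734-88803781, plus strand: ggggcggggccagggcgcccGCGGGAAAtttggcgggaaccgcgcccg
DTL, chr1:212035720-212035747, plus strand: atcagagagcgtgacgtcagTTTGGCGC
POLA1, chrX:24693761-24693808, plus strand: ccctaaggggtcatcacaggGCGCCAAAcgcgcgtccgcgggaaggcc

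DLGAP5, a spindle assembly gene whose promoter is the first of these lines, was at 94.9, 95.4 and 89.7 TPM with 5-FU and at 65.6, 62.6 and 61.4 TPM with irradiation (log2 fold change -0.61, edgeR adjusted p = 8.99e-10). The kinesin genes KIF23 (-0.43) and KIF11 (-0.52) fell as well, and KIF11 went from 39.7, 38.6 and 38.4 TPM to 27.6, 28.9 and 27 TPM. MKI67, the proliferation marker Ki-67, had the largest fall of the list, from 85.6, 86.4 and 88.4 TPM to 49, 59.9 and 55.2 TPM (-0.63, SE 0.06, edgeR adjusted p = 4.39e-08). The groups did not overlap in any of these 4 genes, but the genes were picked by their test or size of fall in these same libraries, so this adds no support. The centromere genes CENPA (-0.57) and CENPE (-0.55) were next. CCNB1, which encodes the mitotic cyclin B1, went from 389, 391 and 399 TPM to 354, 345 and 342 TPM (-0.21, edgeR adjusted p = 4.60e-04), and the mitotic kinase gene PLK1 from 163, 147 and 153 TPM to 124, 123 and 118 TPM (-0.36). These are falls of a fraction of the level, and no G2/M gene fell by 2-fold.

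A few mitotic genes rose against the rest of their list. UBE2C (chr20:45812576-45816957), the ubiquitin-conjugating enzyme of the anaphase-promoting complex, was at 272, 265 and 278 TPM with 5-FU and at 344, 338 and 318 TPM with irradiation (log2 fold change 0.27, SE 0.04, edgeR adjusted p = 3.69e-05). Transcript UBE2C-204 held the rise, from 225 TPM ± 4.35 (SD, n = 3) to 289 ± 12.1, and no other transcript of the gene averaged more than 16.8 TPM. CDK1, the mitotic kinase, went from 176, 176 and 184 TPM to 218, 213 and 209 TPM (0.23). ARL6IP1 (0.24) and HMMR (0.19) were the others. UBE2C kept its call with any 1 of the 6 libraries left out, whereas CDK1 lost it without 5-FU replicate 1 (edgeR adjusted p = 0.0108), without 5-FU replicate 2 (0.0122) and without irradiated replicate 1 (0.0147). ARL6IP1 lost its call without 5-FU replicate 3 (0.0116) or irradiated replicate 1 (0.0143), and HMMR without 5-FU replicate 2 (0.0275) or 3 (0.0173) or irradiated replicate 1 (0.011) or 2 (0.0123).

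Among the replication genes the largest fall was that of CCNE2, the gene of cyclin E2, which brings cells into S phase. It was at 34.4, 37.1 and 40.8 TPM with 5-FU and at 27.6, 26.3 and 26.9 TPM with irradiation (log2 fold change -0.66, SE 0.06, edgeR adjusted p = 5.83e-09). RRM2, the small subunit gene of ribonucleotide reductase, went from 354, 356 and 359 TPM to 258, 243 and 239 TPM (-0.56). CLSPN, a checkpoint adaptor (-0.56), DTL (-0.46), RFC4 (-0.42), and the licensing factor gene CDT1 (-0.39) fell with it. PCNA (-0.05), CCNE1 (-0.04) and E2F1 (-0.02) did not pass, and PCNA lay between 464 and 487 TPM in all 6 libraries. The falls thus covered most, and not all, of the replication genes.

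**Figure D2:**
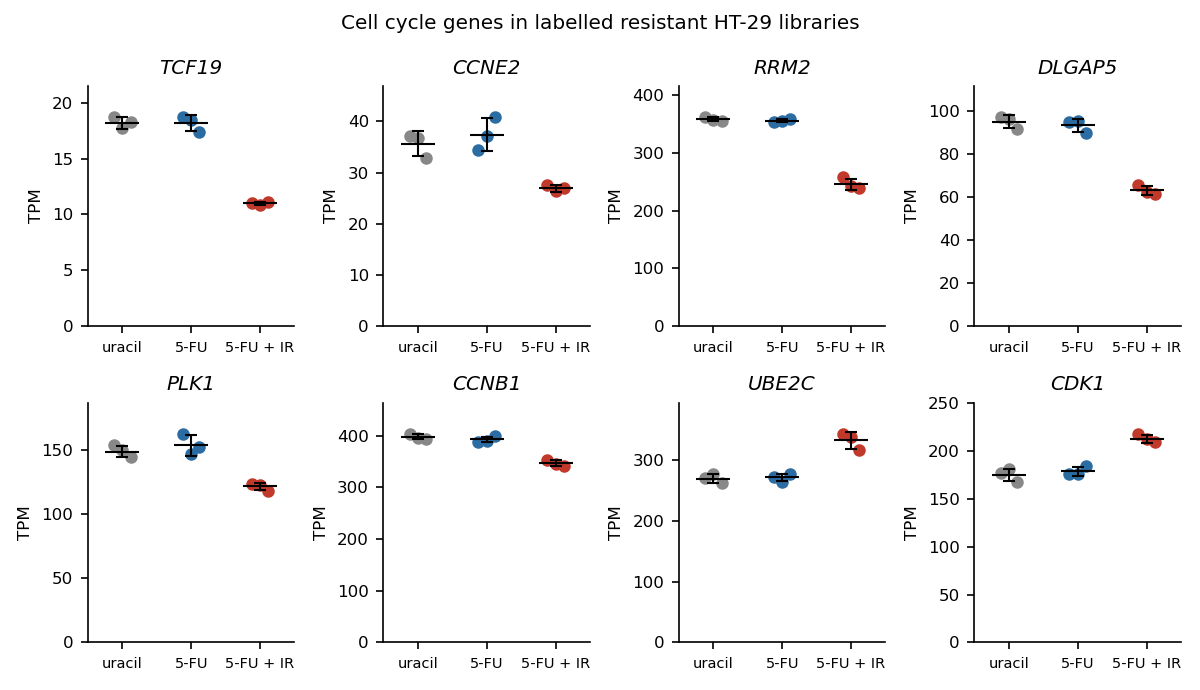
TPM (y axis, from 0) of 8 genes of the cell cycle in the labelled resistant HT-29 libraries under uracil, 5-FU and 5-FU with irradiation (x axis), with points for libraries, long bars for means and whiskers for the SD over 3 replicates. The irradiated replicates lie below the 5-FU replicates in TCF19, CCNE2, RRM2, DLGAP5, PLK1 and CCNB1, and above them in UBE2C and CDK1.

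Genes of 5-FU metabolism and its targets fell in part. Of 19 tested, 7 fell, 1 rose and 11 did not pass, with a median of -0.12. Over all genes tested 6.94% fell and 7.48% rose. TYMS, the gene of thymidylate synthase, was at 335, 336 and 335 TPM with 5-FU and at 281, 282 and 271 TPM with irradiation, and the groups stood apart (log2 fold change -0.31, SE 0.04, edgeR adjusted p = 6.41e-06). UPP1, a uridine phosphorylase that can activate 5-FU, fell from 44.4, 42.6 and 45.4 TPM to 32.2, 34.4 and 31.7 TPM (-0.44). TK1 (-0.28), RRM1 (-0.30) and RRM2 fell too, and RRM2B, which is also a p53 target, was the 1 that rose. Of these 7 genes, TYMS, TK1, RRM1 and RRM2 are also members of the replication list.

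Part of the genes of double-strand break signalling and repair fell. Of 32 tested, 14 fell (6.94% of all genes tested fell) and 0 rose in edgeR's test, with a median of -0.15. DESeq2 also called 0 higher, and 3 were higher at an unadjusted p under 0.05. H2AX, listed as H2AFX, fell the most, from 166, 164 and 174 TPM to 118, 117 and 112 TPM (-0.55, SE 0.04, edgeR adjusted p = 1.38e-09). FANCA (-0.33) and NBN (-0.38) fell as well. The damage kinase genes ATM (0.18) and ATR (0.10) did not pass. The count fell to 9 without 5-FU replicate 1, to 9 without 5-FU replicate 2 and to 8 without irradiated replicate 3. In 2 of the edgeR fits with 1 library left out a member was called higher, 1 without 5-FU replicate 1 and 1 without irradiated replicate 1.

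Targets of the stress factor ATF4 fell in part. Of 23 tested, 10 fell and 1 rose (over all genes tested, 6.94% fell and 7.48% rose), with a median of -0.16. CHAC1, which degrades glutathione, went from 9.36, 9.2 and 9.63 TPM to 5.97, 6.24 and 6.36 TPM (log2 fold change -0.60, edgeR adjusted p = 5.50e-07). DDIT3 (-0.58), TRIB3 (-0.54), and the amino acid synthesis genes PHGDH (-0.40) and ASNS (-0.39) fell alike, and ATF3, a damage-responsive member of the same list, rose (0.27), though not without 5-FU replicate 3 (edgeR adjusted p = 0.0102).

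The other lists had smaller shares of members called, and several of their counts depended on single libraries. Over all genes tested 7.48% rose and 6.94% fell, which is the background for each count here. Interferon-stimulated genes had 8 of 35 called higher and 0 lower by edgeR (2 lower at an unadjusted p under 0.05), with a median of 0.20. Members were called lower in other fits, 2 in the edgeR fit of 9 libraries, 1 in that of 6, 1 without irradiated replicate 2 and 1 by DESeq2. The number higher was 5 without 5-FU replicate 2, 2 without 5-FU replicate 3, 4 without irradiated replicate 1 and 5 without irradiated replicate 3. IFITM3 went from 409, 410 and 415 TPM to 520, 490 and 477 TPM (0.26). Among BCL2-family genes outside the list of p53 targets used here 4 of 16 rose and 2 fell. The division follows that list and does not show which members p53 controls. BIK, a BH3-only gene, led the rises, from 25.3, 25.5 and 22.8 TPM to 38.7, 34.8 and 34.1 TPM (0.53). The 4 became 2 without 5-FU replicate 3 or irradiated replicate 1 and 3 without any 1 of the others, and the 2 that fell became 0 without 5-FU replicate 1 or irradiated replicate 2 and 1 without 5-FU replicate 2 or irradiated replicate 1. BIK and PMAIP1 (0.26) kept their calls in each of these fits, whereas BCL2L1 and BID lost theirs in 4 of the 6 each, BCL2L2 in 4 and BCL2L12 in 2. Of 23 hypoxia-induced genes 4 rose and 1 fell, the latter HK2 (-0.15), which lost its call without 5-FU replicate 1 or irradiated replicate 2 or 3. The lipase inhibitor gene ANGPTL4 went from 8.93, 7.27 and 7.86 TPM with 5-FU to 15, 15.4 and 14.1 TPM with irradiation, close to its mean of 13.8 TPM under uracil. NDRG1 went from 44.4, 39.6 and 36.3 TPM to 60.1, 60 and 56.1 TPM and had a mean of 66.2 TPM under uracil. In these 2 genes the irradiated libraries therefore lay nearer to uracil than to 5-FU alone. The summed level of the list did not follow them. It was 7226 TPM ± 194 (SD, n = 3) under uracil, 6530 ± 288 with 5-FU and 6386 ± 235 with irradiation. NF-kB targets had 2 of 19 higher (1 without 5-FU replicate 3) and 1 lower. Cholesterol synthesis genes had 3 of 25 higher and 3 lower, and the number lower was 5 without irradiated replicate 1 and 1 without irradiated replicate 2. Immediate early and MAPK feedback genes had 5 of 29 higher (3 without 5-FU replicate 3) and 3 lower (1 without 5-FU replicate 1). Of the 13 mitochondrially encoded mRNAs 0 passed by edgeR, with a median of 0.10 and 1 higher at an unadjusted p under 0.05. DESeq2 called 0 of them, and edgeR called 1 higher without the filter on low counts, in the fit of 9 libraries and in that of 6. Zinc finger genes of the ZNF series had 11 of 425 higher and 22 lower. The number higher was 6 without 5-FU replicate 2, 7 without 5-FU replicate 3 and 4 without irradiated replicate 3. The number lower was 12 without 5-FU replicate 3, irradiated replicate 2 or irradiated replicate 3. DESeq2 called 14 of 473 higher and 29 lower, and 1871 and 1934 of all 44867 genes. The share lower was thus below that over all genes by edgeR and above it by DESeq2.

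**Figure D3:**
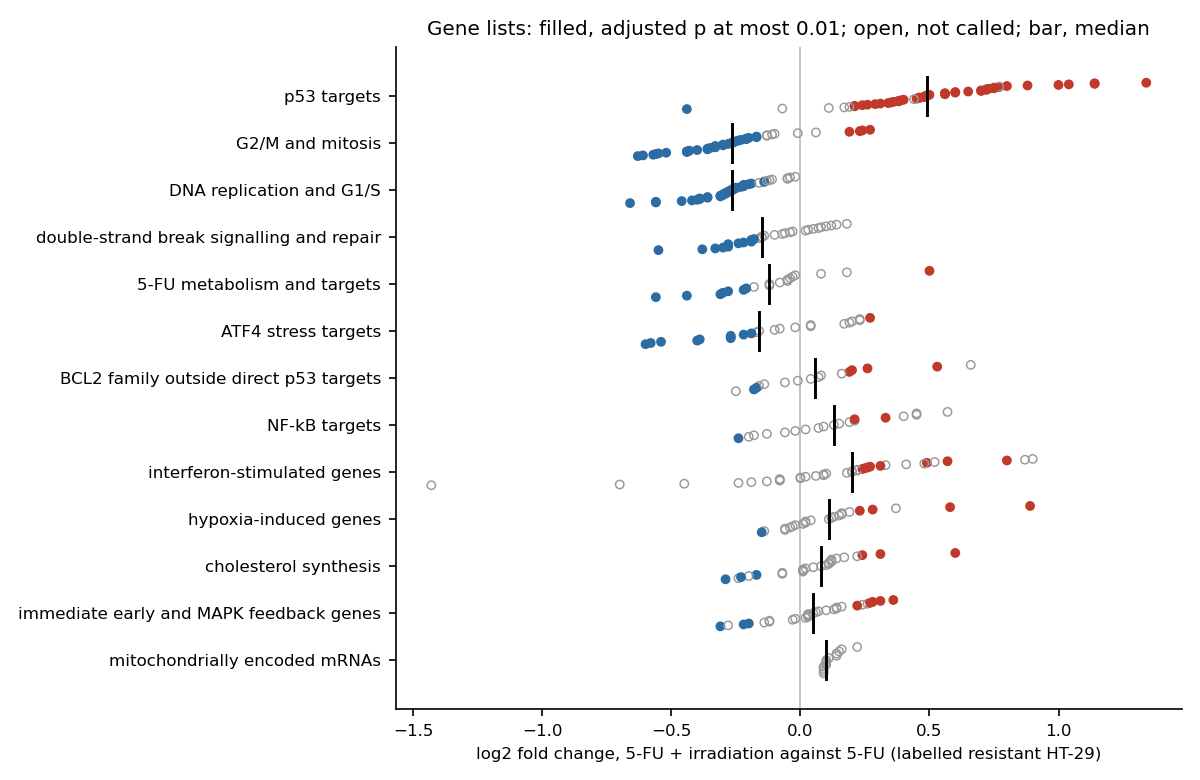
Log2 fold change of irradiation with 5-FU against 5-FU (x axis) for each member of 13 gene lists (rows) in labelled resistant HT-29. Filled points passed an adjusted p of at most 0.01, open points did not, and the black bar is the list's median. The BCL2 row holds family members outside the p53 list used here. The p53 targets are centred at 0.49, and both cell cycle lists lie below 0 with medians of -0.27 and -0.26.

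Of the 13 colonic epithelial markers 2 rose and 0 fell by edgeR (0 fell by DESeq2, and 0 were lower at an unadjusted p under 0.05), with a median of 0.18 and 10 estimates above 0. Over all genes tested 7.48% rose. The number that rose was 5 without irradiated replicate 2, and 1 without 5-FU replicate 3, irradiated replicate 1 or irradiated replicate 3. CDH1, the gene of E-cadherin, was at 8.59, 4.84 and 5.9 TPM with 5-FU and at 9.19, 9.37 and 8.28 TPM with irradiation (log2 fold change 0.54, SE 0.06, edgeR adjusted p = 4.49e-07). Its groups overlapped in TPM, and its call was lost with limma on TPM (adjusted p = 0.0444). KRT20, a keratin of differentiated epithelium, went from 2.84, 2.63 and 2.62 TPM to 4.15, 3.72 and 3.95 TPM (0.49). KRT20 lost its call without 5-FU replicate 3 (edgeR adjusted p = 0.021) or irradiated replicate 1 (0.0182) or 3 (0.0113).

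Markers of other cell types were low. Their summed level was 32.5, 33.1 and 32 TPM with 5-FU and 48, 44.4 and 52.8 TPM with irradiation. Of the 13 listed, 9 were tested and 2 rose (7.48% of all genes tested rose). Of the 13, 3 were at 1 TPM or more in all 6 libraries, and the T cell marker CD3E was at 0 in all 6. ACTA2, the smooth muscle actin gene, went from 5.63, 4.8 and 5.9 TPM to 13.7, 11.9 and 12.4 TPM (log2 fold change 1.22, SE 0.11, edgeR adjusted p = 1.90e-08), and COL1A1 from 13.3, 16.1 and 13.3 TPM to 18.9, 18.7 and 21.2 TPM (0.55). ACTA2 (chr10:88935074-88991339, minus strand) overlaps FAS (chr10:88953813-89029605, plus strand), which is a p53 target that rose, and the strand setting of the counting is not given in the sources used here. Without irradiated replicate 2 the number that rose was 4. The fibroblast genes COL1A2 and DCN were under 0.27 TPM in each library. The part of other cells in these results was not tested.

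The largest rises fell on genes of low level. Of the 12 genes with the largest log2 fold change, SULF2 was the only 1 above 15 TPM in any library. SULF2 (chr20:47656197-47786616), an endosulfatase that trims heparan sulfate, was at 8.46, 9.95 and 6.92 TPM with 5-FU and at 20.5, 22.6 and 19.8 TPM with irradiation, a 2.41-fold rise (log2 fold change 1.27, SE 0.06, edgeR adjusted p = 2.02e-13). The others included DES, a muscle intermediate filament gene, at 1, 0.892 and 0.318 TPM against 2.38, 2.01 and 1.82 TPM (1.56), and the cytokine subunit gene EBI3 at 0.349, 0.686 and 0.755 TPM against 1.74, 1.72 and 1.95 TPM (1.53). CEACAM1, a cell adhesion gene, rose by 1.32 and DRAXIN by 1.29 on the log2 scale, and PDLIM4 by 1.41. EBI3 lost its call without 5-FU replicate 1 (edgeR adjusted p = 0.0142). Clone-named loci make up the rest, led by AC011374.2 with 2 to 4 counts per 5-FU library and 10 to 21 with irradiation, whose call was lost with any 1 of the 6 libraries left out.

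The largest falls split into rare transcripts and a few well-expressed genes. HIST2H2AC, a replication-dependent H2A gene whose transcripts mostly lack a poly(A) tail, was at 4.24, 2.7 and 3.41 TPM with 5-FU and at 0.767, 0.561 and 0.757 TPM with irradiation (-2.34, SE 0.42, edgeR adjusted p = 1.88e-04). Other histone genes did not follow it. Of 40 tested, HIST2H2AC was the 1 that fell and 3 rose (over all genes tested, 6.94% fell and 7.48% rose). Among the 3, HIST1H2BD went from 9.08, 6.87 and 8.25 TPM to 13.2, 13.4 and 14.4 TPM. Without 5-FU replicate 1 the counts were 2 lower and 1 higher. Near-identical histone copies share reads, so the division among them is uncertain. The antisense RNAs EXOSC10-AS1 (-1.46) and STPG3-AS1 (-1.19) fell, the latter together with STPG3 (-0.96) on the opposite strand of the same locus, which the counts may not separate. EXOSC10-AS1 lost its call without 5-FU replicate 1 (edgeR adjusted p = 0.0358) or 2 (0.0219) or irradiated replicate 2 (0.0412) or 3 (0.0484), and STPG3 without 5-FU replicate 2 (0.0233) or irradiated replicate 3 (0.0212). DHRS2 (chr14:23630115-23645639), a short-chain dehydrogenase gene, was at 19.8, 18.5 and 18.3 TPM with 5-FU and at 9.3, 8.98 and 10.5 TPM with irradiation, a 1.93-fold fall (-0.95, SE 0.07, edgeR adjusted p = 5.56e-10).

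In sensitive HT-29, irradiation at the same stated dose came with almost no called change. There, 2 of 23756 genes (0.00842%) passed, both lower, and 786 had an unadjusted p under 0.05. None of the 49 p53 targets, the 40 G2/M genes or the 40 G1/S genes was called there by edgeR, with medians of 0.00, -0.01 and -0.02, and at an unadjusted p under 0.05 there were 2, 2 and 0 of them in either direction. The difference between the effects in labelled resistant and sensitive HT-29 was tested in the same fit. It passed for 1283 genes (5.4%), of which 635 (2.67%) were higher and 648 (2.73%) lower in the labelled resistant libraries. Of the p53 targets 38 of 49 differed upwards and 1 downwards, of the G2/M genes 22 of 40 downwards and 1 upwards, and of the G1/S genes 19 of 40 downwards. CDKN1A, with a log2 fold change of 1.14 in labelled resistant and 0.02 in sensitive HT-29, differed by 1.12 (SE 0.07, edgeR adjusted p = 6.81e-11). SULF2 differed by 1.25, FDXR by 0.83, TP53INP1 by 0.98 and SERPINB5 by 1.04. EPS8L2, an actin regulator, was at 52, 48.3 and 51.9 TPM with 5-FU and at 92.8, 102 and 97.9 TPM with irradiation, and differed by 0.95. MXD4, an antagonist of MYC dimers (0.89), and NADSYN1, which makes NAD (0.66), complete the 8 genes of smallest p, all with effects between -0.05 and 0.06 in sensitive HT-29. The 2 sets share a label and a dose and not their line markers, so the acquired resistance and the line cannot be told apart.

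The comparison with resistant HCT-116, whose libraries carry the same line markers, gave fewer differences. The stated dose there was 1.7 Gy, against 4.6 Gy here, so dose and cells differ together. In resistant HCT-116 593 genes (2.58%) were called, of which 390 (1.7%) rose and 203 (0.884%) fell. Of the 49 p53 targets 31 rose there with a median of 0.34, of the G2/M genes 20 fell with a median of -0.22, and of the G1/S genes 4 fell with a median of -0.12. Of the 1776 genes that rose in labelled resistant HT-29, 1775 were tested in resistant HCT-116, 1655 had the same sign, 313 were called higher and 0 were called lower, with a median of 0.17. Of the 1649 that fell, 1540 had the same sign, 189 were called lower and 0 higher, with a median of -0.12. These values were fitted with separate libraries in each set, and they describe genes chosen by their call in the labelled resistant libraries.

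The difference between the effects passed for 83 of 22616 genes (0.367%), 19 higher (0.084%) and 64 lower (0.283%) in labelled resistant HT-29. With scaling by library size only there were 97, of which 47 were higher and 50 lower, so the division by direction depends on the scaling. The effects given for single sets come from the fits of each line and the differences from a fit of both sets, so the former do not subtract exactly to the latter. SULF2 rose by 1.27 here and by 0.46 in resistant HCT-116, a difference of 0.79 (SE 0.10, edgeR adjusted p = 2.47e-04). Of the 48 p53 targets tested, FDXR alone passed, with 0.80 against 0.49 and a difference of 0.28 (SE 0.05, edgeR adjusted p = 0.00922). CDKN1A, at 1.14 against 0.79, differed by 0.32 (SE 0.08) and did not pass (edgeR adjusted p = 0.0625). Of the 48 p53 targets, 39 had a difference above 0, and 21 were higher and 3 lower at an unadjusted p under 0.05. Over all 22616 genes 1072 were higher and 1916 lower at that limit. Of the 40 G1/S genes 5 were called lower (0.283% of all genes were), and 39 had a difference below 0. Of the 40 G2/M genes 1 was called lower and 1 higher. The other 7 of the 8 genes of smallest p were all lower in labelled resistant HT-29.

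These 7 genes fell in labelled resistant HT-29 and moved less in resistant HCT-116. CCNE2 had a log2 fold change of -0.66 here and 0.12 there, a difference of -0.80 (SE 0.08, edgeR adjusted p = 1.57e-05). TCF19 (chr6:31158331-31167159), a gene of the G1/S phase, was at 18.7, 18.5 and 17.4 TPM with 5-FU and at 11, 10.8 and 11.1 TPM with irradiation (-0.73), against -0.11 in resistant HCT-116, and differed by -0.64. DHRS2 differed by -0.90, with -0.07 in resistant HCT-116. The linker histone gene H1FX (chr3:129314771-129316286) was at 132, 134 and 131 TPM with 5-FU and at 74.5, 72.3 and 75.9 TPM with irradiation (-0.85), against -0.30, and differed by -0.57. MCRIP1 (chr17:81822361-81833302), which binds the corepressor CtBP, went from 39, 35.6 and 36.8 TPM to 20.6, 18.4 and 18.5 TPM (-0.88), against -0.24, and differed by -0.66. ARHGDIA (chr17:81867721-81871378) went from 400, 394 and 397 TPM to 256, 245 and 239 TPM (-0.71), against -0.25, and differed by -0.49. CDCA4, a cell division gene, differed by -0.47. The groups did not overlap in any of these 7 genes, but a test on these same libraries had picked them, so this adds no support. MCRIP1, H1FX and ARHGDIA fell in both sets by the test.

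**Figure D4:**
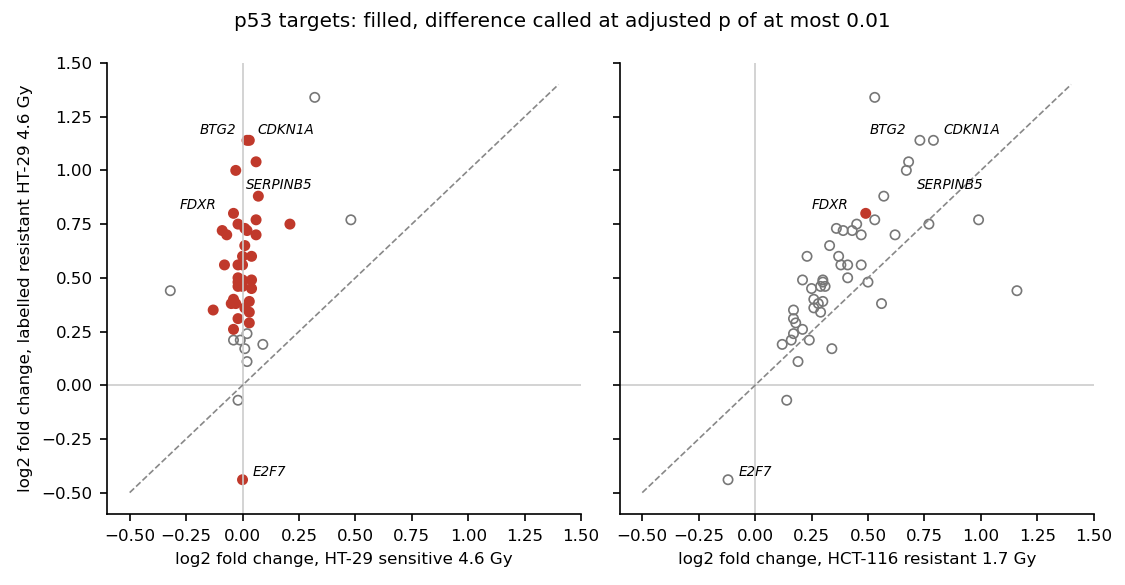
Log2 fold change of irradiation with 5-FU against 5-FU for each p53 target in labelled resistant HT-29 at 4.6 Gy (y axis) against sensitive HT-29 at 4.6 Gy (left, x axis) and resistant HCT-116 at 1.7 Gy (right, x axis). The dashed line marks equal effects and filled points are genes whose difference passed an adjusted p of at most 0.01. On the left 39 points are filled and most lie near 0 on the x axis, and on the right FDXR alone is filled.

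Values for the remaining cell states stand beside these, each from the fit of its own line. In sensitive HCT-116 at 1.7 Gy 213 genes (0.927%) were called, of which 2 (0.00871%) rose and 211 (0.918%) fell. There 1 of the 49 p53 targets rose with a list median of 0.10, while 35 of the 40 G2/M genes and 30 of the 40 G1/S genes fell with medians of -0.56 and -0.31. In resistant DLD-1 at 2.9 Gy 839 genes (3.85%) were called, of which 527 (2.42%) rose and 312 (1.43%) fell. There 5 of 48 p53 targets rose with a median of 0.10, 10 of the 40 G1/S genes rose and 0 fell by edgeR with a median of 0.14, and of the 40 G2/M genes 7 fell and 3 rose with a median of -0.10. In sensitive DLD-1 14 genes (0.0642%) were called, of which 8 (0.0367%) rose and 6 (0.0275%) fell, with 0 of 48 p53 targets called by edgeR (3 higher and 3 lower at an unadjusted p under 0.05). Differences between labelled resistant HT-29 and these 3 states were not tested.

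**Figure D5:**
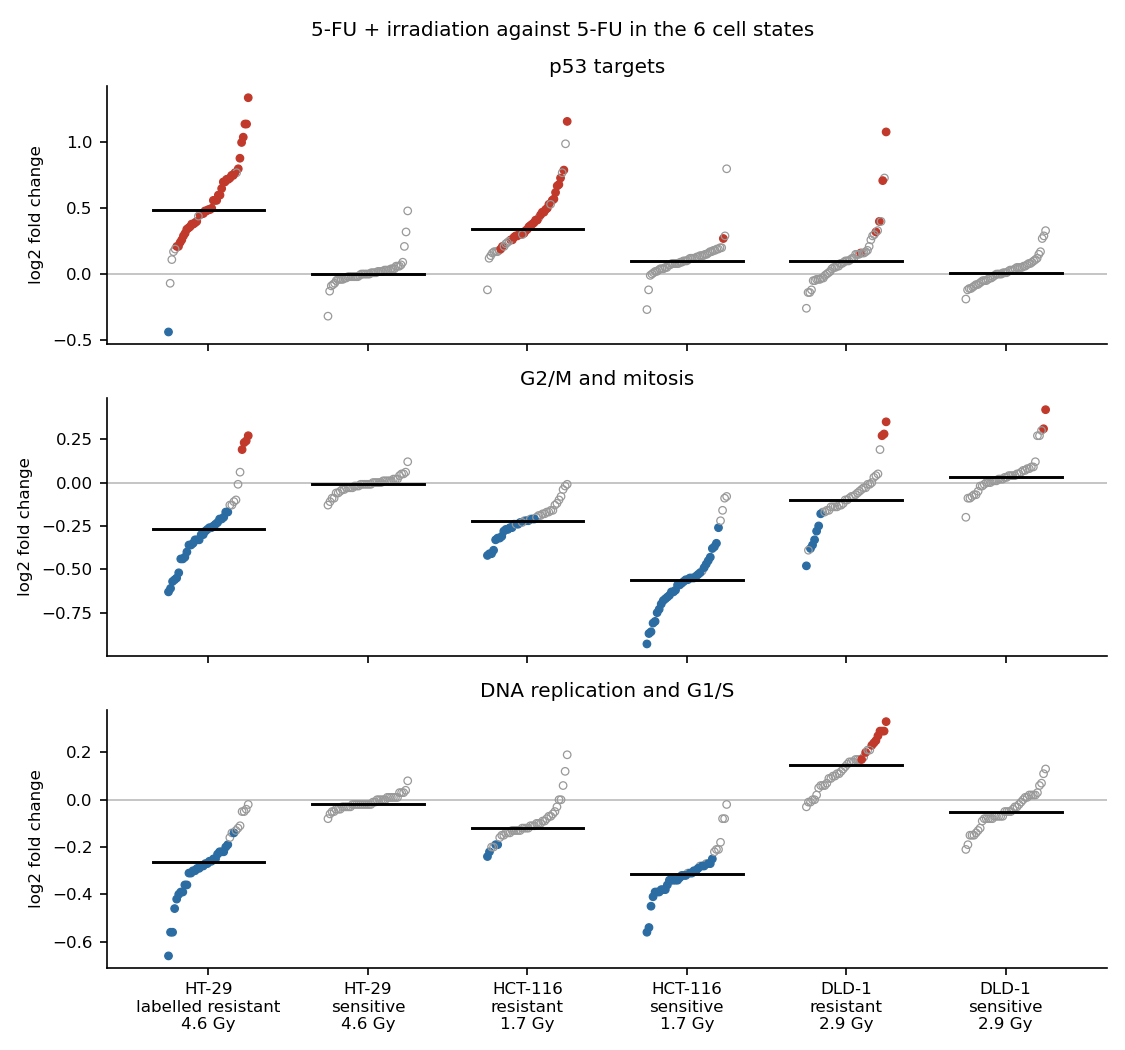
Log2 fold change of irradiation with 5-FU against 5-FU (y axis) for the members of 3 gene lists (panels) in 6 cell states (x axis, with dose). Points are genes in rising order, filled where the adjusted p was at most 0.01, and the bar is the list's median. For the p53 targets the median is 0.49 in labelled resistant HT-29, 0.34 in resistant HCT-116 and 0.00 in sensitive HT-29.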

How the data were processed

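Poly(A) RNA of 54 samples was sequenced as paired ends after a strand-specific library preparation. Per the labels and the study's methods, the authors trimmed reads with Trimmomatic 0.36, checked them with FastQC 0.11.8 and quantified transcripts with kallisto 0.44.0 on GRCh38.p13 and its Ensembl transcripts. The authors deposited estimated counts and TPM per gene and per transcript, and 60.8% of the gene values of the 6 libraries are whole. Kallisto divides reads among similar transcripts, so values of near-identical copies are uncertain. The replicates are biological triplicates per the study.

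Here the deposited gene-level estimated counts were rounded and fitted with edgeR 4.0.16 (R 4.3.3, filterByExpr, TMM, quasi-likelihood) over the 18 libraries labelled HT-29, in 6 groups with 12 residual degrees of freedom. The contrast was 5-FU with irradiation minus 5-FU, with Benjamini-Hochberg adjustment over all 23756 genes and a limit of 0.01, which follows the study, whose further limit of 2-fold was counted separately. The 2 differences between effects were interaction contrasts, the second in a fit of the 18 labelled resistant HT-29 and resistant HCT-116 libraries. A difference of effects is read from its own test only. TPM values are levels and were not used in the main test. Total estimated counts of 45150849 to 56091900 per library leave genes of a few counts with wide errors. Coordinates are from GENCODE 44 (GRCh38) and promoters from RefSeq (GRCh38.p14); clone-named loci had no match.

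The cells, gene lists and tests were chosen with earlier results of these data known. Genes were named by rule: the 12 largest rises and falls among called genes at a mean of 1 TPM or more, up to 6 called members per list and direction, the 8 genes of smallest p in each difference, and 5 reference genes. Alternatives were scaling by library size, no filter on low counts, the replicate number as a block, fits of 9 or 6 libraries, DESeq2 1.42.0, limma 3.58.1 on log2(TPM + 1), other limits and leaving out each replicate. The fitting steps were tested on simulated counts.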

Additional observations from a re-analysis of the deposited data

Results flagged for a closer look

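The changes seen with added irradiation differed between labelled resistant and sensitive HT-29 at the same stated dose, by the edgeR test of the difference. This test passed for 1283 genes. The 8 of smallest p were all higher in the labelled resistant libraries. The differences on the log2 scale were 1.25 for SULF2, 1.12 for CDKN1A, 1.04 for SERPINB5, 0.98 for TP53INP1, 0.95 for EPS8L2, 0.89 for MXD4, 0.83 for FDXR and 0.66 for NADSYN1. Of the 1776 genes that rose in the labelled resistant libraries, 622 differed upwards from sensitive HT-29, where the median of the 1776 was 0.01. Of the 1649 that fell, 642 differed downwards, with a median of -0.01 in sensitive HT-29. Over all genes tested, 635 (2.67%) differed upwards and 648 (2.73%) downwards. The 1776 and the 1649 were picked by their call in the labelled resistant libraries, and the difference uses the same libraries. The selection thus favours the 622 and the 642, and these counts add no support.

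The effects also differed between labelled resistant HT-29 at 4.6 Gy and resistant HCT-116 at 1.7 Gy, where both cells and dose change. The edgeR test of the difference passed for 83 genes. Among the 8 of smallest p, SULF2 differed by 0.79 on the log2 scale, and the rest were lower in labelled resistant HT-29, at -0.90 for DHRS2, -0.80 for CCNE2, -0.66 for MCRIP1, -0.64 for TCF19, -0.57 for H1FX, -0.49 for ARHGDIA and -0.47 for CDCA4.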

How the results depend on the processing

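Added irradiation gave 3425 called genes in labelled resistant HT-29, and the other settings gave 2243 with limma on TPM, 5316 at an adjusted p of at most 0.05, 103 with the 2-fold limit and 2403 to 3189 with any 1 of the 6 libraries left out. Settings within 1.5 times gave 4102 with scaling by library size, 3359 without the filter, 4298 and 4245 in fits of 9 and 6 libraries, and 3805 with DESeq2. The difference from sensitive HT-29 ran from 843 (without irradiated labelled resistant replicate 3, the only library that moved it by over 1.5 times) to 1254 with 1 library left out. The difference from resistant HCT-116 was the least stable, at 345 without the filter, 271 with DESeq2, and 17 (without 5-FU labelled resistant HT-29 replicate 2) to 129 (without irradiated resistant HCT-116 replicate 2), and each of the 12 libraries moved it by over 1.5 times when left out. The number of repair genes called lower was 7 with limma and 8 to 12 with 1 library left out, and that of interferon-stimulated genes called higher was 3 with limma and 2 to 9. With 1 library left out, p53 targets called higher numbered 41 to 42, G2/M genes called lower 27 to 30 and G1/S genes called lower 27 to 32. Limma gave 38, 25 and 26, scaling by library size 44, 29 and 32, and the fit of 9 libraries 42, 30 and 36. The causes were not tested. Of 130 named genes, all called, 81 passed in each of the 13 alternative fits that tested them and 0 changed sign.

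The deviations of like-numbered libraries correlated at 0.135, 0.00517 and -0.0161 over 13085 genes. Those of unlike-numbered libraries correlated at -0.13 to 0.116. With so few libraries these values do not settle whether replicate numbers pair the samples, and the main test took them as unpaired. With the replicate block the counts were 3403, 1256 for the difference from sensitive HT-29 and 37 for that from resistant HCT-116. Depth limits the rarest genes, such as AC011374.2 with 2 to 4 counts per 5-FU library.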
